A study of Homo sapiens with 36 samples.

Results

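Chromatin access around 10 keratin genes of mammary epithelium, KRT8, KRT18, KRT7, KRT19, KRT80, KRT5, KRT14, KRT17, KRT6A and KRT81, was described over 36 ATAC-seq peak lists. ATAC-seq marks open chromatin by the sites where a transposase inserts adapters, and a peak is a stretch where such insertions exceed the local background. A peak was taken when its centre lay in one of these genes or within 50 kb of either gene end (hg38), and overlapping peaks were merged over the 36 libraries. This gave 146 keratin regions of 259704 regions in all, at 10 of 19970 protein-coding genes. Of the 146 regions, 82 lay in the windows of 2 or more of the 10 genes, so neighbouring genes share values, and 53 were nearest to a gene outside the set. Chosen for their names and not for a readout, the 10 genes were set with earlier results of these data known.

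All libraries came from BT549, an established line of triple-negative breast cancer, so the values describe 1 line, and MDA-MB-231, a second line the study names, was not analysed here. The study asked how activation of the glucocorticoid receptor, knockdown of the transcription factor GATA6 and loss of the ATPases of the SWI/SNF remodelling complex change chromatin access. In the GATA6 experiment the 4 groups were siCtl_DEX, siCtl_Veh, siGATA6_DEX and siGATA6_Veh, with 3 libraries each. Cells there carried control siRNA or a siRNA pool against GATA6 (72 h) and received vehicle or, for 2 h, DEX (dexamethasone, which activates the glucocorticoid receptor) at 500 nM. In the inhibitor experiment the groups DEX_BRM014, DEX_DMSO, BRM014 and DMSO, with 4 libraries each, received 10 µM BRM014 for 4 h or its solvent DMSO, with or without 500 nM DEX for 4 h. BRM014 inhibits BRG1 and BRM, the ATPases of SWI/SNF. In the ATPase knockdown experiment siBRG1_siBRM, with siRNA against both ATPases, was compared with siCtl_only, a separate set with control siRNA, with 4 libraries each and no DEX. Peaks do not measure how far GATA6, BRG1 or BRM were depleted.

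Keratins are intermediate filament proteins that assemble as pairs of a type I and a type II chain. In the mammary gland KRT8 (type II) and KRT18 (type I) form the filaments of luminal cells, which also carry KRT7 and KRT19, while KRT5 and KRT14 form those of basal cells. KRT17 and KRT6A are induced in stressed, wounded or basal-like epithelium, KRT80 is a type II keratin of epithelia near desmosomes, and KRT81 is a hair-type keratin. The type II genes lie in a cluster on chromosome 12, where KRT18 stands as the type I exception, and the other type I genes lie in a cluster on chromosome 17.

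Promoter windows of 300 bases, 250 before and 50 after an annotated start, were taken from RefSeq (GRCh38.p14), whose table held windows for 2 of the 10 genes, KRT5 and KRT8. They are shown because neither lay under a peak in any library. A pair of windows of non-coding genes is shown beside them because both lay under regions held by all 36 libraries, a choice made after the values were seen. All 4 are on the minus strand, at chr12:52213534-52213833 (LINC02874, between KRT80 and KRT7), chr12:52279107-52279406 (KRT86-AS2, beside KRT81), chr12:52520345-52520644 (KRT5) and chr12:52926420-52926719 (KRT8, inside the gene as the gene table draws it). Capitals mark motif matches on either strand.
LINC02874: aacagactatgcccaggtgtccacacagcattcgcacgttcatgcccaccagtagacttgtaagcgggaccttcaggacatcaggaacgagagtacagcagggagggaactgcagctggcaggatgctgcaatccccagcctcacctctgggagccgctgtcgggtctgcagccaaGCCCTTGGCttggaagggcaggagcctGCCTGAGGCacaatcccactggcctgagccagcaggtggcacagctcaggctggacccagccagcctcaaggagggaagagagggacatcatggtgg
KRT86-AS2: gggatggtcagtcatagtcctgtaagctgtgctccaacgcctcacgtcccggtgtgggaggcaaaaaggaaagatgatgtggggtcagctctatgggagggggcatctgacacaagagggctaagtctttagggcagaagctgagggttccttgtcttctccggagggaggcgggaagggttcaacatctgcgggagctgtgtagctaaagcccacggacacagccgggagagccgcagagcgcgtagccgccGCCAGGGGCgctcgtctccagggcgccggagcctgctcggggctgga
KRT5: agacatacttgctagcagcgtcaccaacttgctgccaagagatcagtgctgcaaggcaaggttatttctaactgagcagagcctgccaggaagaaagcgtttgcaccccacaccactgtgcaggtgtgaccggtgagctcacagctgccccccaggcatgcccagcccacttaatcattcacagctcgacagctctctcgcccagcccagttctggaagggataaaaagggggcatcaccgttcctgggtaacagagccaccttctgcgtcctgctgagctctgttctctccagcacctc
KRT8: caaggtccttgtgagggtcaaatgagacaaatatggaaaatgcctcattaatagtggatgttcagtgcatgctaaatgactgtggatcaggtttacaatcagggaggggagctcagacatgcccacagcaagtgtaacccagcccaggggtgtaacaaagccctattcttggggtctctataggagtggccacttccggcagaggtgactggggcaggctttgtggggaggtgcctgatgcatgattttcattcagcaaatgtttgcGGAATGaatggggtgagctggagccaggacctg
The open region at the LINC02874 start covered 230 bases of its window and that at the KRT86-AS2 start covered 176. Both held the AP-2 motif GCCNNNGGC, with 2 matches and 1 match, and 23.2% of all 34961 windows in the table hold it. The KRT8 window held the TEAD motif GGAATG once, found in 14% of all windows. None of the 4 held ACANNNTGT, the core of the glucocorticoid response element, nor the AP-1 motif TGANTCA or the grainyhead motif AACNNGTT, which 5.36%, 7.68% and 3.52% of all windows hold. The motif AGATAA bound by GATA factors, found in 10.3% of all windows, was absent as well, and so was the SP1 motif GGGCGG, found in 45%. The short box known as CCAAT, found in 34.6%, and the start-site box written TATAAA, found in 11.5%, also had no match. The nearest region to the KRT5 window, chr12:52521438-52521581, lay 794 bp away and was held by 2 libraries, and that nearest to the KRT8 window, chr12:52927364-52927689, lay 645 bp away and was held by 14. Elsewhere inside KRT8 as drawn, chr12:52903377-52903708 was held by 35 libraries. The empty KRT8 window therefore does not stand for the whole gene or for any other start it may have.

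The libraries held between 37184 and 131423 peaks on chromosomes 1 to 22 and X, with the fewest in siBRG1_siBRM replicate 3. Peak lists carry no read counts, so depth per library is unknown. As a check of the cell type, 4 of 6 mesenchymal markers (AXL, TWIST1, FN1 and CDH2) had a peak at the gene start, or at either end where no strand was known, in all 36 libraries, ZEB1 in 34 and VIM in 1. Of 6 luminal markers, EPCAM, ESRP1, GRHL2 and CLDN4 had none in any library, CDH1 had one in 20 and ERBB3 in 27. Of the basal markers reported, EGFR had a peak in 36 libraries, ITGA6 in 34, and TP63, ITGB4 and LAMA3 in none. The 4 leukocyte and 2 endothelial markers had none, and of the neural markers SYP had one in 36 and RBFOX3 in none.

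Most of the 10 keratin genes had no peak over a gene end. No region lay over either end of KRT5, KRT6A, KRT14, KRT17, KRT18, KRT19 or KRT81 in any library. The higher-coordinate end of KRT8, which lies inside KRT18 in the gene table, had chr12:52949829-52950085 in 14 libraries, and a further region inside KRT18, chr12:52948988-52949288, was also held by 14. KRT7 had chr12:52232856-52233328 over its lower-coordinate end in 24 libraries, and KRT80 had chr12:52191897-52192098 over its higher-coordinate end in 20. Just beyond that end of KRT80, chr12:52192220-52192765 was held by all 36 libraries with a median fold of 24.5. Ranked by the authors' −log10 q, and not by fold, it lay at the 98.6th percentile of peaks within a library (median over libraries). The fold is the authors' own value for each peak, its height at the summit over the local background of the same library, and it is used here only as a description. Near-identical neighbours such as KRT6B and KRT6C, KRT16 and KRT86 could share reads with these genes, and the handling of such reads is not given in the sources used here, so its part in the absent peaks was not tested.

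KRT80 had the most regions in its surroundings in each of the 10 groups by mean. Over the 36 libraries KRT80 had between 8 and 30 regions per library (median 20.5), KRT7 between 4 and 23 (median 15), KRT8 between 2 and 21 (median 13), KRT18 between 1 and 14 (median 7) and KRT19 between 2 and 13 (median 8). KRT81 had between 3 and 14 (median 8), KRT17 between 4 and 9 (median 6) and KRT14 between 2 and 8 (median 5). KRT5 and KRT6A, which share 10 of their 11 regions each, had between 0 and 7 (median 1). All these ranges overlapped those of their neighbours in the order. KRT7 and KRT8 averaged 14 regions each in DEX_DMSO, and KRT7 averaged 15.25 and KRT8 13.5 in DMSO. With the inhibitor KRT8 was the higher, where KRT8 averaged 8.75 and KRT7 5.25 regions in DEX_BRM014, and KRT8 averaged 8 and KRT7 5 in BRM014.

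A set of 16 keratin regions, 10.96% of the 146, was held by all 36 libraries, against 9.23% of all regions. Of these, 6 lay in the window of KRT80, among them chr12:52163738-52164289 (median fold 22.8) and chr12:52156871-52157083 (median fold 18.0). The KRT17 window held 4, led by chr17:41665949-41666159 and chr17:41648745-41648965 (median folds 23.3 and 21.7), and none lay in the windows of KRT5 or KRT6A. Another 44 regions, 30.1% of the 146, were held by a single library, against 33.6% of all regions. Only 33 of the 146 lay inside one of the genes, 12 of them in KRT80.

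**Figure D1:**
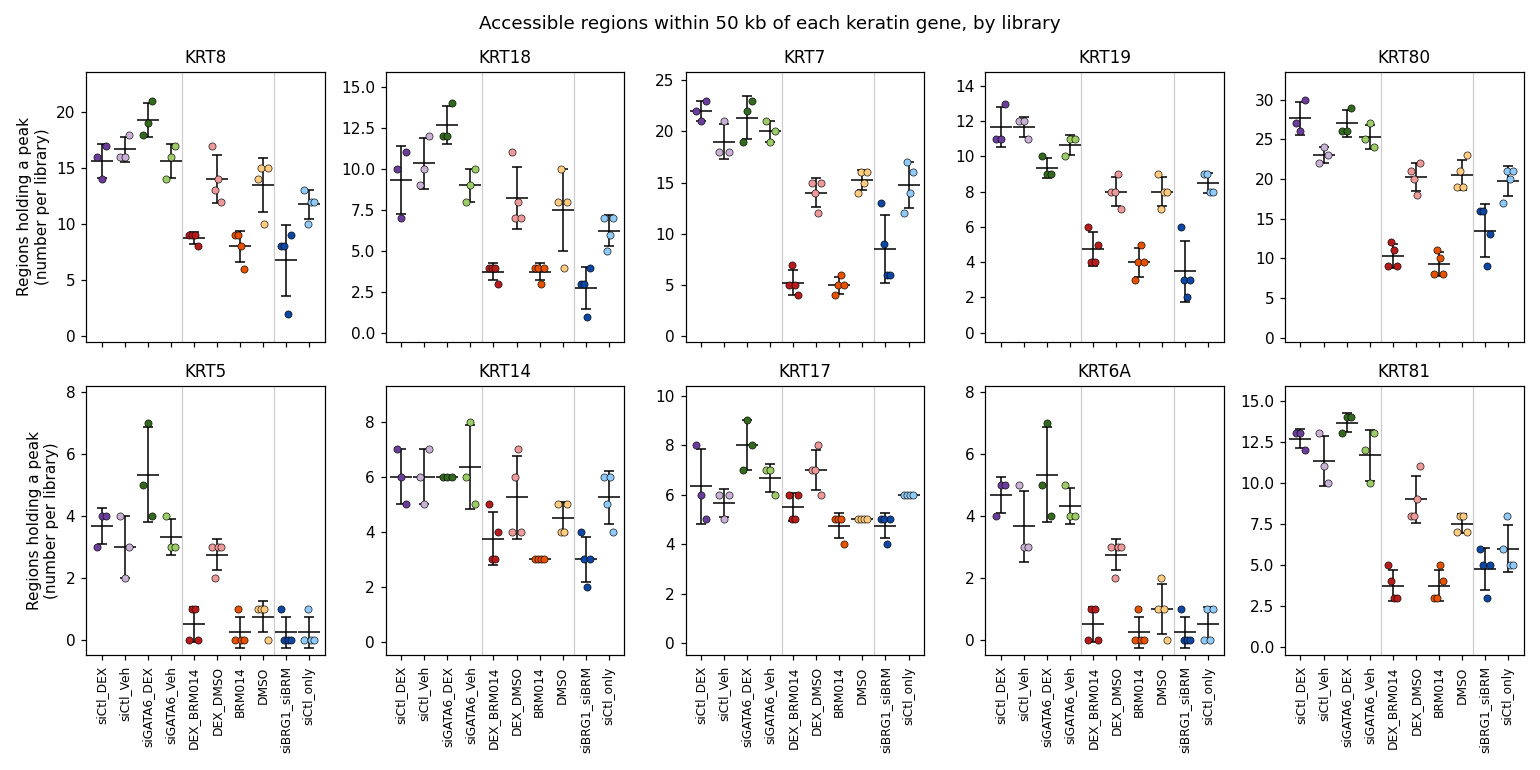
Number of regions holding a peak within 50 kb of each keratin gene, in every library (points), with the mean and SD of each group (bars). With BRM014, KRT7 had 4 to 7 regions in the inhibitor libraries and 12 to 16 in the DMSO libraries, while the KRT17 groups overlapped.

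One region near KRT19 separated the libraries with and without a knockdown or inhibitor. At chr17:41530176-41530479, 1868 bp beyond the higher-coordinate end of KRT19, a peak was listed in 0 of 18 libraries with siGATA6, BRM014 or siBRG1_siBRM, and in 18 of 18 libraries without them. In the groups without knockdown or inhibitor its fold was 9.68, 13.5 and 12.4 in siCtl_DEX, and 15.4, 20.2 and 16.7 in siCtl_Veh. In the inhibitor experiment it was 6.50, 3.93, 4.29 and 7.56 in DEX_DMSO, and 7.01, 10.9, 9.42 and 9.85 in DMSO. The siCtl_only libraries had 6.90, 14.1, 11.1 and 13.0. The folds with DEX lay below those without it in siCtl cells, while the ranges of DEX_DMSO and DMSO overlapped, and no test was run on folds. Over all 259704 regions, 19 had this pattern, 0.00732%, and this was the 1 keratin region among them. When each library of an experiment contributed the same number of best peaks, 0 of 18 libraries with knockdown or inhibitor and 10 of 18 without them held it, and at a −log10 q of 5 or more the counts were 0 and 16.

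Many keratin regions were lost with BRM014. A region was called lost when every library of the untreated group and no library of the treated group held it, and gained in the opposite case, a rule without a p-value. Without DEX 11 of 79 tested keratin regions were lost and 0 gained, where the rule called 11.3% of all tested regions lost and 0.041% gained. With DEX 9 of 89 were lost and 0 gained (11.6% and 0.0761% of all). Shares of the keratin regions, 13.9% and 10.1%, were near these. From equal numbers of best peaks 6 were lost and 1 gained without DEX, and 5 lost and 1 gained with DEX. The share of all regions called from such lists was not computed, so these counts cannot be set against it. A total of 5 keratin regions were lost in both settings, among 8688 such regions in the whole data. These were the KRT19 region above, chr12:52972061-52972300 at 19155 bp beyond KRT18, chr12:52243916-52244428 inside KRT7, chr12:52230419-52230795 below KRT7 and chr12:52181776-52182225 inside KRT80.

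The region inside KRT7 had a median fold of 20.6 where held, the highest of the 25 keratin regions called in any comparison. It had no peak in the 4 DEX_BRM014 libraries, against folds of 17.9, 14.7, 19.8 and 13.3 in DEX_DMSO. It had none in the 4 BRM014 libraries, against 22.97, 20.7, 19.7 and 20.8 in DMSO. By contrast the region just beyond KRT80, chr12:52192220-52192765, was held by every library. Its folds were 20.6, 19, 18.8 and 21 in DEX_BRM014, against 29.1, 27.3, 26.8 and 27.2 in DEX_DMSO, without overlap, and 27.5, 26.7, 30.6 and 20.3 in BRM014, against 27.6, 27.6, 24.3 and 24 in DMSO, with overlap. The region beyond KRT18 was absent from all 8 libraries with BRM014 and had folds of 11, 14.9, 9.01 and 14 in DEX_DMSO and 5.30, 13.4, 10.7 and 11.9 in DMSO. Lost in 1 DEX setting only by the rule were 6 regions without DEX and 4 with DEX. Without DEX these were 2 inside KRT80, chr12:52230857-52231168 below KRT7, chr12:52287073-52287204 inside KRT81, chr12:52279623-52279950 inside the neighbouring KRT86 and 5963 bp below KRT81, and chr17:41538765-41539537 beyond KRT19. With DEX they were 1 inside KRT80, chr12:52306146-52306346 inside KRT86 and chr12:52315870-52316004 inside KRT83, which lie 14612 and 24336 bp above KRT81, and chr12:52871190-52872029, which lies 25162 bp below KRT8 and nearer to KRT78. None of the lost regions had KRT5, KRT6A, KRT14 or KRT17 as the nearest of the 10 genes, although the KRT14 window holds chr17:41538765-41539537. No region nearest to KRT5, KRT6A or KRT14 was held by every DMSO or every DEX_DMSO library. The rule could therefore call none of those regions lost, and their absence from the list says nothing about these genes. Whether loss differed between the DEX settings was not tested per region.

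**Figure D2:**
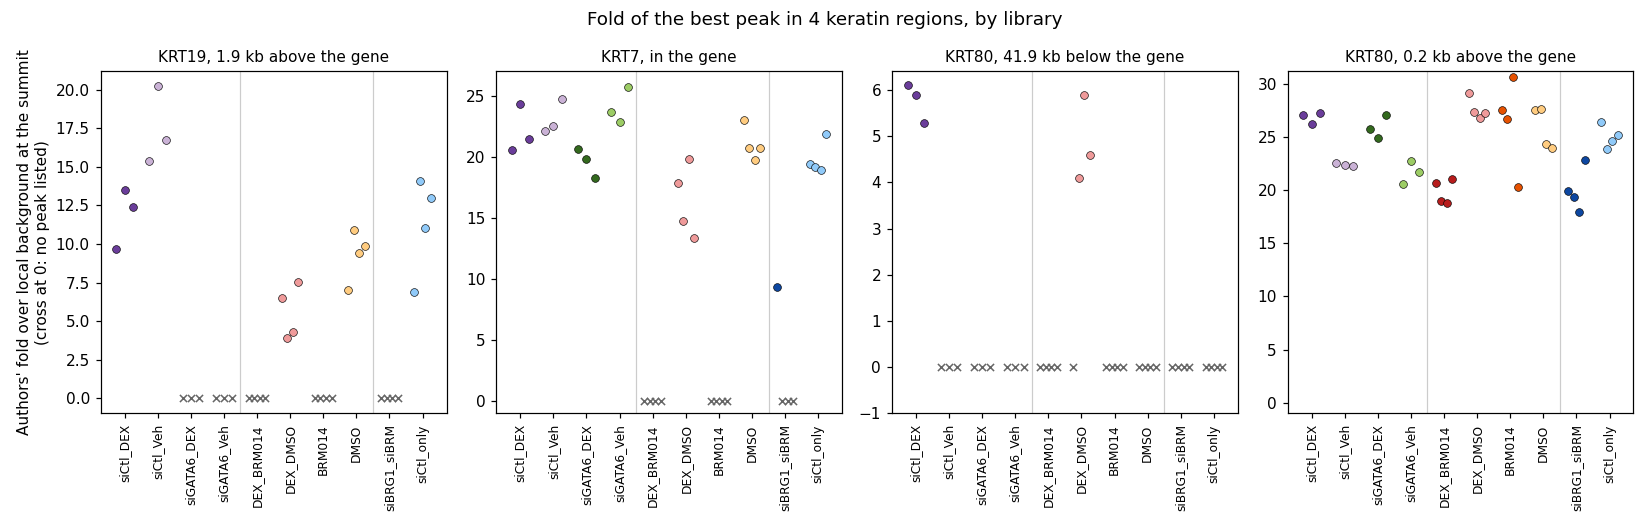
The authors' fold of the best peak in 4 keratin regions, in every library (points), with a cross at 0 where no peak was listed. The KRT19 region 1.9 kb above the gene has crosses in all libraries with siGATA6, BRM014 or siBRG1_siBRM, the KRT7 region in all 8 with BRM014, and the region 0.2 kb above KRT80 has none.

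Among the luminal genes, KRT7, KRT8, KRT18 and KRT19 had fewer regions with BRM014. KRT7 had 5, 7, 5 and 4 regions in DEX_BRM014, against 15, 14, 12 and 15 in DEX_DMSO, and 4, 5, 6 and 5 in BRM014, against 14, 16, 15 and 16 in DMSO. The groups of KRT7 did not overlap. Over both DEX levels KRT7 had 5.12 ± 0.991 regions with BRM014 and 14.6 ± 1.30 without (SD, n = 8 each; two-sided exact permutation test within DEX levels, p adjusted over 19599 genes = 0.00148). KRT8 had 8.38 ± 1.06 and 13.8 ± 2.12, and KRT19 4.38 ± 0.916 and 8 ± 0.756, with the same adjusted p and no overlap. KRT18, the partner chain of KRT8, had 3.75 ± 0.463 regions with BRM014 and 7.88 ± 2.10 without (SD, n = 8 each; adjusted exact permutation p = 0.00387), and its groups overlapped at 4 regions. KRT8 and KRT18 share 23 regions, so these are not separate observations. KRT18 did not pass within 10 kb of the gene, and neither KRT18 nor KRT19 passed with equal numbers of best peaks per library. Fewer cells with an open region and less access per cell cannot be told apart in these bulk libraries.

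KRT80 and KRT81 also had fewer regions with BRM014. The windows of KRT7, KRT80 and KRT81 share all 36 regions of KRT7, 21 of 45 of KRT80 and 16 of 21 of KRT81. These genes are therefore not separate observations. KRT80 had 9, 12, 11 and 9 in DEX_BRM014, against 21, 20, 18 and 22 in DEX_DMSO, and 8, 11, 10 and 8 in BRM014, against 19, 21, 19 and 23 in DMSO. Over both DEX levels KRT80 had 9.75 ± 1.49 with BRM014 and 20.4 ± 1.69 without, and KRT81 had 3.75 ± 0.886 and 8.25 ± 1.28 (SD, n = 8 each; adjusted exact permutation p = 0.00148 for both). Neither gene had overlapping groups. The share of all genes without overlap is not given here. Lack of overlap, in this or another comparison, is therefore not read as particular to the keratin genes.

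Of the basal genes, KRT14, KRT5 and KRT6A passed the test with differences of 1.5 regions or fewer on average, and KRT17 did not. KRT14 had 3.38 ± 0.744 regions with BRM014 and 4.88 ± 1.13 without (SD, n = 8 each; adjusted exact permutation p = 0.0214). All 13 regions of KRT14 also lie in the window of KRT17 or KRT19. Among them chr17:41538765-41539537, 10457 bp beyond KRT19, was held by 4 of 4 DMSO and 4 of 4 DEX_DMSO libraries. With the inhibitor it was held by 0 of 4 BRM014 and 1 of 4 DEX_BRM014 libraries. KRT5 had 0 or 1 region with BRM014 and 0 to 3 without (adjusted exact permutation p = 0.0138), and KRT6A had the same ranges (adjusted exact permutation p = 0.0113). In percent, KRT5 and KRT6A had the largest decreases of the 10 genes, -78.6% and -80.0%, from means below 2 regions without BRM014. Neither call held at a −log10 q of at least 5 (adjusted exact permutation p = 0.181 for both) or when peaks had to cover 50% of a region (0.0909 for both). Within 10 kb of the gene the adjusted exact permutation p was 0.0674 for KRT5, 0.242 for KRT6A and 0.598 for KRT14, and with a replicate block it was 0.0869 for KRT14. KRT17 had 5.12 ± 0.641 and 6 ± 1.20 regions (SD, n = 8 each; adjusted exact permutation p = 0.0608). Leaving out BRM014 replicate 1, 2 or 3 or DEX_DMSO replicate 4 brought KRT17 below 0.05, to adjusted p between 0.0226 and 0.0291 in the same exact permutation test. All 4 genes had overlapping groups.

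In all, 9 of the 10 keratin genes had fewer regions, where 68.8% of all 19599 genes changed, 13478 lower and 11 higher. The median change of the 10 was -52.3%, against -31.9% over all genes tested. The libraries with BRM014 also had fewer peaks, 49906 to 64198 in DEX_BRM014 against 94777 to 103956 in DEX_DMSO, and 41026 to 60995 in BRM014 against 88348 to 98220 in DMSO. Per 100000 peaks the keratin regions held numbered 60.7 ± 4.36 in DEX_BRM014 and 61.5 ± 1.61 in DEX_DMSO, and 56.5 ± 4.57 in BRM014 and 59.0 ± 2.75 in DMSO, and these values overlapped (SD, n = 4 each). With equal numbers of best peaks per library, 4 of the 10 genes passed, KRT7, KRT80, KRT8 and KRT81 (lower by the exact permutation test, adjusted p between 0.00561 and 0.0396). In that setting KRT19, KRT14 and KRT17 had 0.125, 0.500 and 0.875 more regions with BRM014, none past the threshold, KRT5 and KRT6A were not tested, and of all genes 1993 were lower and 3152 higher. Within 10 kb of the gene 5 of the 10 genes were lower, KRT7, KRT8, KRT19, KRT80 and KRT81, where 7753 of all genes were lower and 10 higher.

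**Figure D3:**
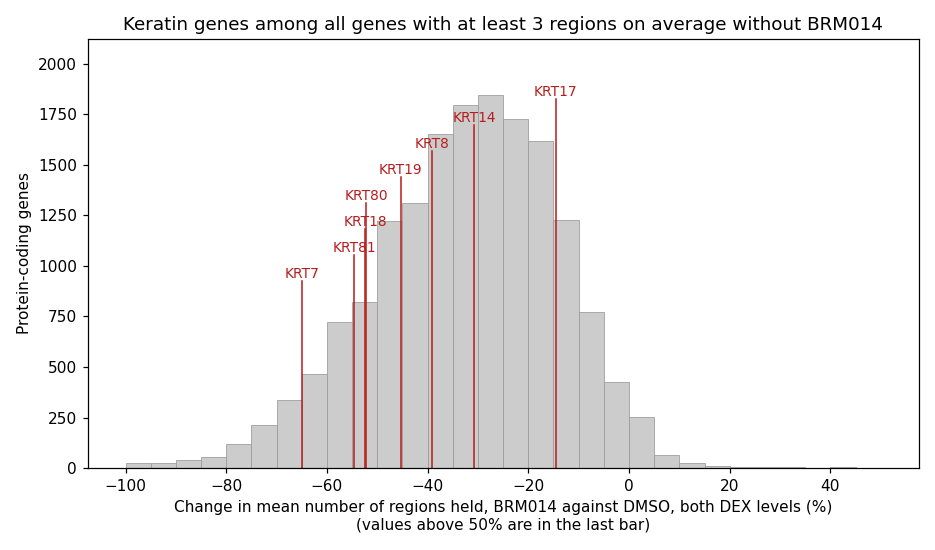
Change in the mean number of regions held with BRM014 against DMSO over both DEX levels, for 16785 protein-coding genes with at least 3 regions on average without the inhibitor (grey bars, number of genes per 5% step), with 8 of the 10 keratin genes marked in red. KRT7 lies at -65.0% and KRT17 at -14.6%, and the middle 50% of all genes lie between -44.4% and -19.6%. KRT5 and KRT6A had too few regions to be drawn.

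The 44 keratin regions held by every DMSO library were then followed. Without DEX 25.0% of them had no peak in any BRM014 library and 47.7% had one in every BRM014 library, against 24.3% and 49.4% of 63285 such regions in the whole data. With DEX the 44 regions in every DEX_DMSO library were lost in 20.5% and kept in 61.4% of cases, against 26.1% and 51.7% of 65106 regions. The kept keratin regions had a median DMSO fold of 15.5 and the lost ones 9.42 without DEX, and 12.2 and 8.18 with DEX. Keratin regions kept in some of the inhibitor libraries had the lowest median folds, 7.22 without DEX and 7.10 with DEX. Over all such regions the kept, partly kept and lost ones had median folds of 17.1, 8.82 and 7.60 without DEX, and 15.6, 8.25 and 7.497 with DEX. These values are given as a description and were not tested.

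The siRNA knockdown of both ATPases gave fewer calls. Of 77 tested keratin regions 6 were lost and 0 gained with siBRG1_siBRM, where the rule called 6.73% of all regions lost and 0.0282% gained. Lost were the KRT19 region, chr17:41496785-41497073 below KRT19, chr12:52972061-52972300 beyond KRT18, chr12:52871190-52872029 below KRT8, chr12:52230857-52231168 below KRT7 and chr12:52191897-52192098 over the end of KRT80. The region at the end of KRT80 had folds of 3.90, 4.03, 4.89 and 4.73 in siCtl_only. Of the 5 regions lost with BRM014 in both DEX settings, 2 were also lost here, those near KRT19 and KRT18. Over all regions this held for 3279 of 8688, out of 8123 lost with siBRG1_siBRM, so the keratin count lies near the share of all. The other 3 were held by at least 1 siBRG1_siBRM library. Those inside and below KRT7 were held by replicate 1 only, with folds of 9.37 and 5.57. This replicate had 66607 peaks, the most of its group. In siCtl_only the region inside KRT7 had folds of 19.4, 19.15, 18.9 and 21.9. The region below KRT7 had 13.35, 13.8, 8.08 and 6.50. The region inside KRT80 at chr12:52181776-52182225 kept folds of 13.2, 9.24, 9.35 and 9.92 in siBRG1_siBRM, against 15.5, 20.5, 16.5 and 16.1 in siCtl_only, without overlap. Without siBRG1_siBRM replicate 1 the rule called 10 regions lost, and from equal numbers of best peaks it called 1 lost and 1 gained.

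Per gene, KRT19 had 6, 3, 2 and 3 regions in siBRG1_siBRM, against 9, 9, 8 and 8 in siCtl_only, and KRT18 had 3, 3, 1 and 4, against 7, 5, 6 and 7. KRT8, KRT17 and KRT80 likewise had non-overlapping groups with fewer regions in siBRG1_siBRM. For these 5 genes the exact permutation p was 0.0286, the smallest that 4 against 4 libraries allow, and 0.0906 after adjustment over 19432 genes. At adjusted p below 0.05 the exact permutation test called 0 of the 10 genes and 0% of all genes, while 6125 of all genes had an unadjusted p below 0.05. KRT7 had 13, 9, 6 and 6 regions, against 12, 17, 14 and 16, and its groups overlapped. Peaks per library numbered 37184 to 66607 in siBRG1_siBRM and 81639 to 87609 in siCtl_only, and keratin regions per 100000 peaks were 65.2 ± 8.73 and 60.9 ± 2.01 (SD, n = 4 each).

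Few keratin regions beyond that at KRT19 were called with siGATA6. Without DEX it was the 1 of 100 tested regions lost, and 0 were gained, where the rule called 0.806% of all regions lost and 0.459% gained. With DEX 2 of 108 were lost and 1 gained (0.71% and 0.677% of all). Of 239 regions lost with siGATA6 in both settings it was the 1 keratin region. The other loss with DEX was chr12:52126678-52127101, on the KRT80 side and nearest to SMIM41, in 0 of 3 siGATA6_DEX and 3 of 3 siCtl_DEX libraries. The gain was chr17:41654098-41654467, 29523 bp beyond KRT17, with weak folds of 5.55, 3.5 and 5.57 in siGATA6_DEX and no peak in siCtl_DEX. Without DEX the count was 2 when siCtl_Veh replicate 1 or 3 or siGATA6_Veh replicate 2 or 3 was left out. With DEX it was 7 without siGATA6_DEX replicate 1 and 5 without siGATA6_DEX replicate 2 or siCtl_DEX replicate 1, since the rule then asks for fewer libraries.

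Counted per gene, KRT19 had 10, 9 and 9 regions in siGATA6_DEX, against 11, 11 and 13 in siCtl_DEX, and 10, 11 and 11 in siGATA6_Veh, against 12, 12 and 11 in siCtl_Veh. The groups did not overlap with DEX and met at 11 without it. Within DEX levels the exact permutation p of KRT19 was 0.015 (adjusted 1), and no other of the 10 genes was below 0.05. At adjusted p below 0.05 the test called 0% of 19584 genes, 677 being below 0.05 unadjusted. The smallest p of this design is 0.005, so a count of 0 after adjustment does not show that genes did not differ.

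A few keratin regions with low folds were gained with DEX, mainly at KRT80 and KRT7. At 2 h 4 of 101 tested regions were gained and 0 lost with control siRNA, where the rule called 2.52% of all regions gained and 0.817% lost. With siGATA6 4 of 110 were gained and 1 lost (2.36% and 0.595% of all). The keratin shares of 3.96% and 3.64% gained rest on 4 regions each and lie near these. Inside KRT7, chr12:52243174-52243406 was gained in both siRNA settings, with folds of 5.59, 4.798 and 5.99 in siCtl_DEX and 3.96, 6.75 and 6.005 in siGATA6_DEX. No vehicle library held it, nor did any library of the other experiments, DEX_DMSO at 4 h included. The region at chr12:52126678-52127101 on the KRT80 side had folds of 6.11, 5.89 and 5.28 in siCtl_DEX and none in siCtl_Veh. It was also held by 3 of 4 DEX_DMSO libraries and by no DMSO, DEX_BRM014, BRM014 or siGATA6 library. The other gains with control siRNA were chr12:52149075-52149223 below KRT80 and chr12:52252238-52252390 inside KRT7.

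With siGATA6 the further gains with DEX were chr12:52149603-52149881 below KRT80, chr12:52971619-52971869 beyond KRT18 and the region beyond KRT17, and the loss was chr12:52189531-52189681 inside KRT80. Without siCtl_Veh replicate 3 the count with control siRNA was 8, and without siGATA6_DEX replicate 1 that with siGATA6 was 8. At 4 h the rule called 0 of 96 keratin regions gained or lost with DEX in DMSO, where it called 1.56% of all gained and 0.434% lost. With BRM014 present it called 0 of 50, where it called 0.323% gained and 0.155% lost. The count in DMSO was 3 without DEX_DMSO replicate 2, and 1 without DMSO replicate 3 or DEX_DMSO replicate 1 or 3, and the count with BRM014 was 1 without BRM014 replicate 3. The 2 h and 4 h values come from separate experiments and their difference was not tested.

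**Figure D4:**
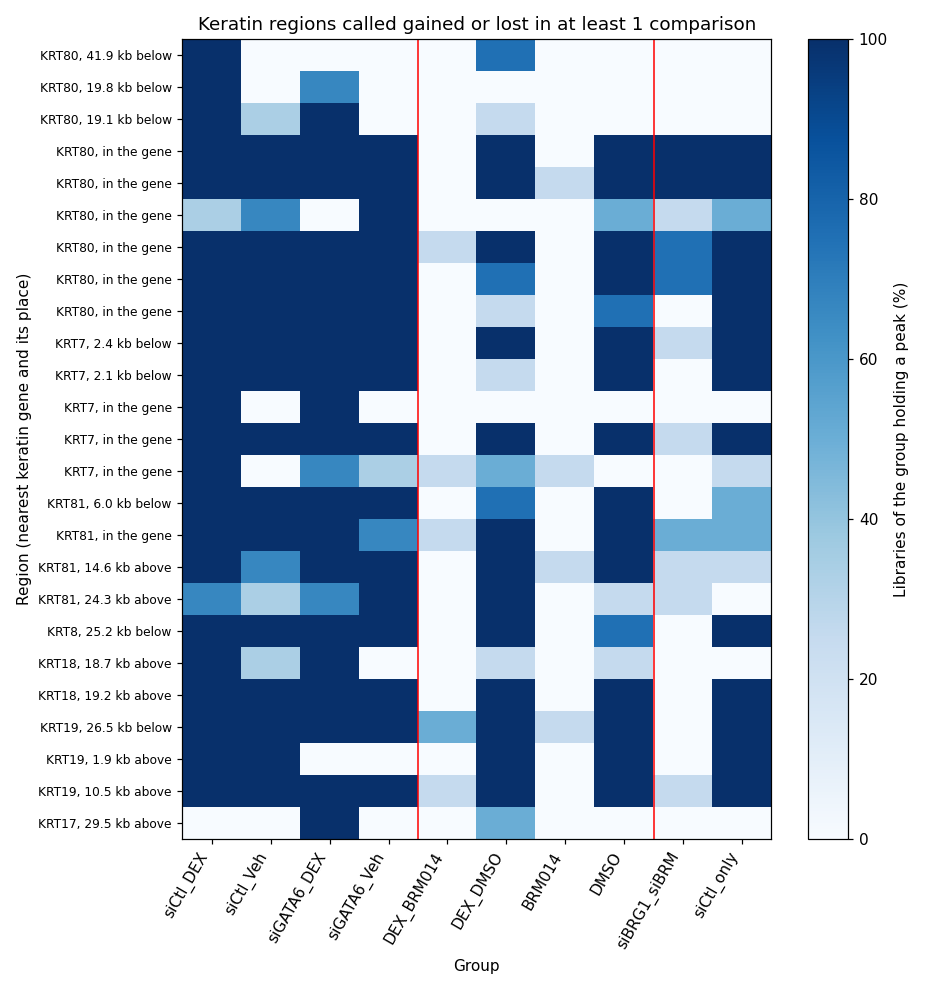
Share of libraries in each group that held a peak (colour, 0 to 100%) for the 25 keratin regions called gained or lost in at least 1 comparison, in order along chromosomes 12 and 17. The columns with BRM014 do not exceed 50% in any row, and the row 1.9 kb above KRT19 is 0 in the siGATA6, BRM014 and siBRG1_siBRM columns.

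Per gene, KRT80 had 27, 26 and 30 regions in siCtl_DEX, against 22, 24 and 23 in siCtl_Veh, and 26, 26 and 29 in siGATA6_DEX, against 25, 27 and 24 in siGATA6_Veh. The groups of KRT80 overlapped with siGATA6 and not with control siRNA. Within siRNA levels its exact permutation p was 0.02 (adjusted 0.256). At 2 h the smallest p of the exact permutation test is 0.005, so a count of 0 after adjustment does not show that genes did not differ. The exact permutation test of DEX at 2 h called 0 of the 10 genes and 0% of 19584 genes, 2468 being below 0.05 unadjusted. At 4 h it called 0 of 10 and 0% of 19599, 1600 being below 0.05 unadjusted, with KRT17, KRT5 and KRT6A among them (p = 0.00408, 0.0204 and 0.0388, adjusted 0.385, 0.491 and 0.568, in the exact permutation test). KRT5 had 0, 1, 1 and 0 regions in DEX_BRM014, against 0, 1, 0 and 0 in BRM014, and 3, 2, 3 and 3 in DEX_DMSO, against 1, 1, 1 and 0 in DMSO. The DEX effect on KRT5 differed between BRM014 and DMSO by -1.75 regions (permutation p = 0.0085, adjusted 0.694).

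Interactions were tested for each gene by permutation of residuals. For DEX at 4 h by BRM014 0 of the 10 genes and 0 of 19599 genes passed the adjustment, and 1129 of all genes had an unadjusted p below 0.05. For DEX at 2 h by siGATA6 0 of 10 and 0 of 19584 passed, with 634 unadjusted. In the second, KRT8 had 18, 19 and 21 regions in siGATA6_DEX, against 14, 16 and 17 in siGATA6_Veh, and 16, 14 and 17 in siCtl_DEX, against 16, 16 and 18 in siCtl_Veh. Its DEX effect differed by 4.67 regions between the siRNA settings (permutation p = 0.0321, adjusted 1).

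Other genes of the filament and its anchors were counted in lists chosen with earlier results known. Over all 19599 genes 13478 were lower with BRM014 and 11 higher, and from equal numbers of best peaks 1993 were lower and 3152 higher, so the counts in these lists stand beside a high share of all genes. With BRM014, 14 of 18 tested other epithelial keratins were lower and 0 higher, with KRT13 at 4.38 ± 0.916 regions with BRM014 and 9.12 ± 0.835 without (SD, n = 8 each). Of 25 hair and root sheath keratins 19 were lower, among them KRT38, which had no region in the BRM014 libraries and 4.25 ± 1.28 without. Of 18 desmosome and plakin genes, which tie keratin filaments to cell junctions, 16 were lower, with DST at 22 ± 4.38 and 43.4 ± 1.60, PKP1 at 5.00 ± 1.41 and 14.9 ± 2.80 and DSP at 1.88 ± 0.991 and 5.62 ± 0.744 regions with and without BRM014. Of 16 other intermediate filament genes 12 were lower, with VIM, the vimentin gene of mesenchymal cells, at 6.88 ± 1.13 and 11.5 ± 0.926. The exact permutation p of each of these named genes, adjusted over 19599 genes, was 0.00148. The median changes were -68.0% in the other epithelial keratins, -50.9% in the hair keratins, -43.0% in the desmosome and plakin genes and -32.0% in the other intermediate filament genes, beside -31.9% over all genes. In the other effects no gene of these lists passed the adjustment.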

How the data were processed

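Accessible regions were profiled by ATAC-seq in 36 libraries of BT549 cells, grouped by their titles. Each deposited peak list belongs to 1 library. The tools MACS2, HOMER, SAMtools and bcl2fastq and the build hg38 (GRCh38) are named in the submitters' processing notes. Versions, aligner, settings, read shifting and duplicate handling, not given in the sources used here, could each change which weak peaks are listed. For each peak the authors deposited a fold (ratio) over local background, a score, and the −log10 of p and of q. The lowest deposited −log10 q was 1.301.

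Peaks on autosomes and X, each counted once, were merged over all libraries. A region was held by any library with a peak over at least 1 bp of it. Genes came from RefSeq without strand. Regions held were counted per protein-coding gene with a 50 kb margin and compared by two-sided exact permutation of group means, within the levels of the other factor (4900 or 400 arrangements), with Benjamini-Hochberg adjustment over all genes tested at a threshold of 0.05. Interactions used 100000 permutations of residuals. The smallest p is 0.000408 in the inhibitor experiment, 0.005 in the GATA6 experiment and 0.0286 in the ATPase knockdown experiment. P-values measure the spread between libraries titled biological replicates. Python 3.11.15, NumPy 2.4.6 and pandas 2.3.3 were used.

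The gene tests were tried on simulated data, with a smaller loss of regions in 100 genes and a larger loss in another 100. The test of BRM014 called 84 and 100 of them, and that of DEX at 4 h called 73 and 99. Of unchanged genes these tests called 6 of 18336 and 1 of 18184. Simulated libraries had no general loss of peaks, unlike those with BRM014, so the rates may differ in the real data. The tests of DEX at 2 h, siGATA6 and siBRG1_siBRM called 0 at either loss. With so few genes changed, their smallest p fixed this outcome in advance. Counts of 0 from these 3 tests in the real data therefore do not show that genes did not differ. Members and lists were chosen with earlier results of these data known. Named are all 10 genes, regions called in a comparison, at a gene end or in all 36 libraries, and up to 4 genes per other list. Regions nearest to the KRT5 and KRT8 windows and regions inside KRT8 and KRT18 were named besides these. Alternatives were a −log10 q of at least 5, equal numbers of best peaks, 50% coverage of the region, merging within an experiment, a 10 kb margin, a replicate block and leaving out each library. One basal marker is not reported here.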

Additional observations from a re-analysis of the deposited data

Results flagged for a closer look

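Of 57 groups of 4 libraries with a spread, 14 counts of regions per gene had 1 library apart from the other 3, by Dixon's criterion on the gap over the range, where chance gives about 1 in 20 groups. With tied counts in the other 3 libraries, a step of 1 region meets this criterion. The KRT5 count stood apart at 1 in BRM014, 2 in DEX_DMSO, 0 in DMSO, 1 in siBRG1_siBRM and 1 in siCtl_only. The KRT6A count stood apart at 1 in BRM014, 2 in DEX_DMSO and 1 in siBRG1_siBRM. For KRT8 it was 8 in DEX_BRM014 and 2 in siBRG1_siBRM (8 to 9 in the other 3 libraries of siBRG1_siBRM). For KRT17 it was 4 in BRM014 and 4 in siBRG1_siBRM, and for KRT18 it was 3 in BRM014 and 3 in DEX_BRM014. The low siBRG1_siBRM values of KRT8 and KRT17 came from replicate 3, which has 37184 peaks, the fewest of all libraries.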

How the results depend on the processing

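Counts of called regions depended on the rule. For these alternatives and for leaving out libraries, the share of all regions called was not computed. The region counts below therefore describe the keratin regions alone. With a −log10 q of at least 5, 2 keratin regions changed between siGATA6_Veh and siCtl_Veh. With equal numbers of best peaks (114113, 41026 and 37184 per library by experiment) the counts were 2 for siGATA6_Veh against siCtl_Veh, 7 for BRM014 against DMSO, 1 for DEX_DMSO against DMSO and 2 for siBRG1_siBRM against siCtl_only. The number of keratin genes lower with BRM014 was then 4 of 10 (5145 of all genes changed), and KRT14, KRT17 and KRT19 turned to 0.5, 0.875 and 0.125 more regions. Lists of equal length replace lost peaks by others, by construction. With 50% coverage the counts were 2 (siGATA6_DEX against siGATA6_Veh), 5 (siGATA6_DEX against siCtl_DEX) and 3 (siBRG1_siBRM). Within 10 kb they were 2 (siCtl_DEX against siCtl_Veh), 2 (siGATA6_DEX against siGATA6_Veh), 1 (siGATA6_DEX against siCtl_DEX), 5 (DEX_BRM014 against DEX_DMSO) and 3 (siBRG1_siBRM), with 5 keratin genes lower with BRM014 (7763 of all genes changed, 7753 of them lower). The cause of the shifts at 50% coverage and at −log10 q of 5 was not tested.

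Leaving out 1 library gave 4 to 8 changed regions for siCtl_DEX against siCtl_Veh, 5 to 8 for siGATA6_DEX against siGATA6_Veh, 1 to 2 for siGATA6_Veh against siCtl_Veh, 3 to 7 for siGATA6_DEX against siCtl_DEX, 0 to 3 for DEX_DMSO against DMSO, 0 to 1 for DEX_BRM014 against BRM014, and 6 to 10 for siBRG1_siBRM. Those for BRM014 were 11 to 15, and 9 to 12 with DEX. The labels do not say whether replicate numbers pair libraries. Correlations were used only to set same-numbered pairs of libraries against differently numbered ones, and do not measure how alike the peak lists are. On the median, same-numbered libraries correlated at 0.0678 and differently numbered ones at -0.0668 in the GATA6 experiment. These medians were 0.0880 and -0.0300 in the ATPase knockdown experiment, and 0.00193 and 0.00023 in the inhibitor experiment. The ranges of same-numbered and differently numbered libraries overlapped in each experiment. Same-numbered libraries correlated between 0.0209 and 0.229 (GATA6), -0.121 and 0.4004 (inhibitor) and 0.0510 and 0.108 (ATPase knockdown), and each was most like its own number in 23 of 36, 15 of 48 and 5 of 8 cases. Each case was a choice among 3 libraries (GATA6) or 4 (the others), so some matches arise without pairing. All same-numbered GATA6 pairs were thus above 0, where differently numbered ones lay between -0.166 and 0.0839. Pairing in that experiment is therefore not excluded. With the replicate block 8 keratin genes were lower with BRM014, KRT14 having an adjusted exact permutation p of 0.0869, and it changed no other call. Peak lists carry no depth, so absence of a peak is not absence of access.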
